A study of Sus scrofa with 48 samples.

Results

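Glucocorticoid activation and response genes were described in longissimus muscle of 48 pigs. The 10 genes considered were HSD11B1, H6PD, NR3C1, FKBP5, TSC22D3, KLF9, SGK1, ZBTB16, DUSP1 and CEBPD, and their probes were those carrying the gene's symbol in the array's annotation. The symbols of 8 genes were found on 33 probes, of 60305 distinct probes on the array. Probes whose spot stood well above background on 12 or more of the 48 arrays were kept, which left 32 probes of 7 genes among 42125 tested probes. HSD11B1 had 7 kept probes, FKBP5 5, NR3C1 4, KLF9 11, SGK1 2, DUSP1 2 and ZBTB16 1. CEBPD, a transcription factor gene, had 1 probe, which was well above background on 0 arrays and was left out, whereas the dimmest kept probe, of KLF9 (A_72_P502804), passed on 46 arrays. No probe carried the symbol H6PD or TSC22D3, so these genes were not analysed here.

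The pigs were barrows of purebred Large White lines selected in opposite directions for residual feed intake (RFI), that is, the feed eaten beyond that predicted from growth and maintenance. Low RFI pigs are the more feed-efficient line. Within each line, 12 pigs had free access to a diet rich in fat and fibre (HF). The other 12 had free access to a diet of standard composition, labelled low fat (LF), which gave 4 groups of 12 pigs. Line and genetic background cannot be told apart in this design, since each line is a single selected population. Each pig had its own Agilent array, labelled with Cy3.

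Cortisol acts on muscle through the glucocorticoid receptor, encoded by NR3C1, which waits in the cytosol bound to chaperones and moves to the nucleus when the hormone binds. HSD11B1 encodes the enzyme that regenerates active cortisol from inactive cortisone inside cells, with cofactor supplied by the product of H6PD. The receptor switches on FKBP5, whose product lowers the receptor's own affinity for the hormone, and also the transcription factor genes KLF9 and ZBTB16, the kinase gene SGK1 and the phosphatase gene DUSP1. In muscle, glucocorticoids are known for driving protein breakdown.

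The array read these genes through 60-base probes. Sequences are shown for 5 of the 6 HSD11B1 probes with similar line differences, 3 of the 5 FKBP5 probes and the ZBTB16 probe. Among the 7 genes, FKBP5 and ZBTB16 were the pair that varied together most closely between pigs. The lead probes of HSD11B1 and FKBP5 are not among those printed. The start of each HSD11B1 and FKBP5 probe in its transcript, where the array's annotation gave one, is in the name. Capitals mark the run of bases that a probe shares with another of the same gene. The HSD11B1 probes A_72_P006061 and O9336 share 58 bases and A_72_P545172 and A_72_P607268 share 17, so the members of each pair are not separate readings of the transcript.
HSD11B1 A_72_P006061 (start 105): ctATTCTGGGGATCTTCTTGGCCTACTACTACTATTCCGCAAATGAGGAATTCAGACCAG
HSD11B1 O9336: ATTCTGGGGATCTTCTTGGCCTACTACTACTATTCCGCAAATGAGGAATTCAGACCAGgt
HSD11B1 A_72_P543418 (start 625): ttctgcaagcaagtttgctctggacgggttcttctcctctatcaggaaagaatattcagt
HSD11B1 A_72_P545172 (start 769): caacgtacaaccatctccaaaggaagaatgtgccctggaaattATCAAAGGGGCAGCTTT
HSD11B1 A_72_P607268 (start 812): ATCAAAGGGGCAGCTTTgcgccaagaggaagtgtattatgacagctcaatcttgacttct
FKBP5 A_72_P719403 (start 614): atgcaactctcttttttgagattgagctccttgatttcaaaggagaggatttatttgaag
FKBP5 A_72_P476959 (start 797): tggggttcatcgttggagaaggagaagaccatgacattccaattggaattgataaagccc
FKBP5 A_72_P078706 (start 979): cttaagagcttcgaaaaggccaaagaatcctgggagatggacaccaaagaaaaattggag
ZBTB16 O11027: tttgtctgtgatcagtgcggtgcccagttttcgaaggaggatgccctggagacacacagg

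Levels below are array-centred log2 signals, that is, the log2 of the processed spot signal minus the mean of that array over the tested probes. Differences are high RFI minus low RFI, or HF minus LF, on the same log2 scale, with their standard error. Adjusted p values come from limma with Benjamini-Hochberg adjustment over all 42125 tested probes, at a threshold of 0.05. Between 59.2% and 74.2% of probes were well above background per array, and no spot was saturated. The lead probe of a gene was the kept probe well above background on most arrays and, among those, the brightest. The 9 skeletal muscle fibre genes looked at, such as ACTA1 and CKM, were well above background on all 48 arrays through their lead probes, as the tissue label requires. The samples are whole muscle, so fewer cells of a type and less RNA per cell cannot be told apart.

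HSD11B1, the cortisol-regenerating enzyme, had the largest line difference among the lead probes of the 7 genes. The gene set was selected on earlier values of these arrays, namely the line differences of HSD11B1 and FKBP5. Those values and this rank, which the choice favoured, are therefore given as a description, without a test. On its lead probe (A_72_P035496, start 1285), low RFI pigs on the HF diet ran from 1.73 to 2.44 with a median of 2.09. High RFI pigs on the HF diet ran from 2.06 to 3.78 with a median of 2.72. On the LF diet, low RFI pigs ran from 1.91 to 2.80 with a median of 2.27, and high RFI pigs from 2.14 to 4.46 with a median of 2.82. The groups overlapped at the low end of the high RFI line, while 12 of 24 high RFI pigs lay above the highest low RFI pig and 22 of 24 above the low RFI median. The means were 2.18 ± 0.26 (SD, n = 24) in low RFI and 2.85 ± 0.56 (SD, n = 24) in high RFI pigs, a difference of 0.67 (SE 0.12), or 1.59-fold. By diet, the line difference was 0.68 with HF feeding and 0.65 with LF feeding.

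The order of the group means was low RFI on HF (2.07), low RFI on LF (2.29), high RFI on HF (2.76) and high RFI on LF (2.95). The step between the diets did not pass the test within the low RFI line (-0.22, limma adjusted p = 0.663) or the high RFI line (-0.19, limma adjusted p = 0.970). High RFI pigs also differed more among themselves, with SDs of 0.49 on HF and 0.62 on LF against 0.20 and 0.26 in low RFI pigs. Within the 6 slides, each carrying 2 arrays of each group, the line difference of the lead probe ran from 0.29 to 0.97, and on the 2 scan days it was between 0.62 and 0.72.

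**Figure D1:**
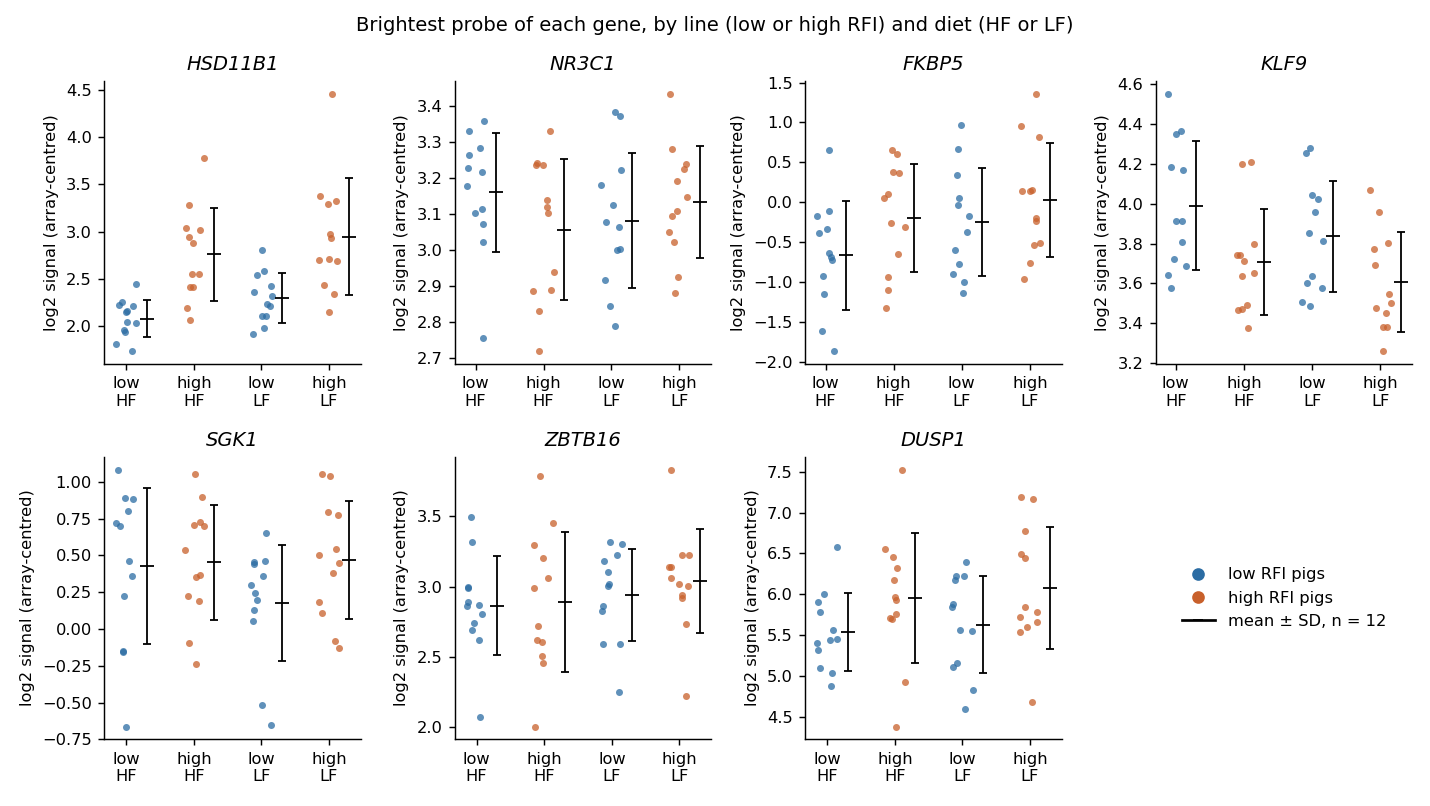
Array-centred log2 signal (vertical axis of each panel, own scale) of the lead probe of 7 genes in low RFI (blue) and high RFI (orange) pigs on the HF and LF diets. Points are pigs and black marks are the mean ± SD of 12 pigs. The HSD11B1 points of the high RFI groups reach 3.78 and 4.46 and those of the low RFI groups stop at 2.44 and 2.80, whereas the NR3C1 lines cover nearly the same range.

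Not every HSD11B1 probe gave this picture. For 6 of the 7 probes the line difference was between 0.67 and 0.87 (SE 0.12 to 0.16). The remaining probe, A_72_P649421, starts at base 1127 of the same transcript, between the probes at 812 and 1285, and differed by 0.06 (SE 0.11, 95% interval -0.16 to 0.28). On it low RFI pigs ran from 0.16 to 1.51 with a median of 0.64, and high RFI pigs from 0.30 to 2.01 with a median of 0.71. The lines therefore overlapped almost wholly on this probe. Within groups, its correlation with the other HSD11B1 probes was 0.61 to 0.66 over the 48 pigs, while the other 6 correlated with each other at 0.90 to 0.97. The log2 ratio of this probe to the mean of the other 6 was 1.005 ± 0.24 (SD, n = 24) in low RFI and 0.28 ± 0.46 (SD, n = 24) in high RFI pigs, which shows unequal change and not which reading follows the amount of transcript.

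Calls between the lines were counted over the 20 probes of the 5 genes whose line differences the set was not chosen by. Of these, 0 were called higher in the high RFI line, where 6.57% of all tested probes were, and 3 were called lower, where 9.85% were. The 3 belong to KLF9, and 5 of the 20 had an unadjusted limma p under 0.05. With HF feeding alone 0 were called higher and 2 lower (2.36% and 4.03% of all tested probes), and with LF feeding alone 0 and 2 (1.13% and 1.34%), the 2 being KLF9 probes each time. At an unadjusted p under 0.05 there were 3 of the 20 on each diet. The median line difference over the 20 probes was 0.08, beside -0.03 over all tested probes.

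**Figure D2:**
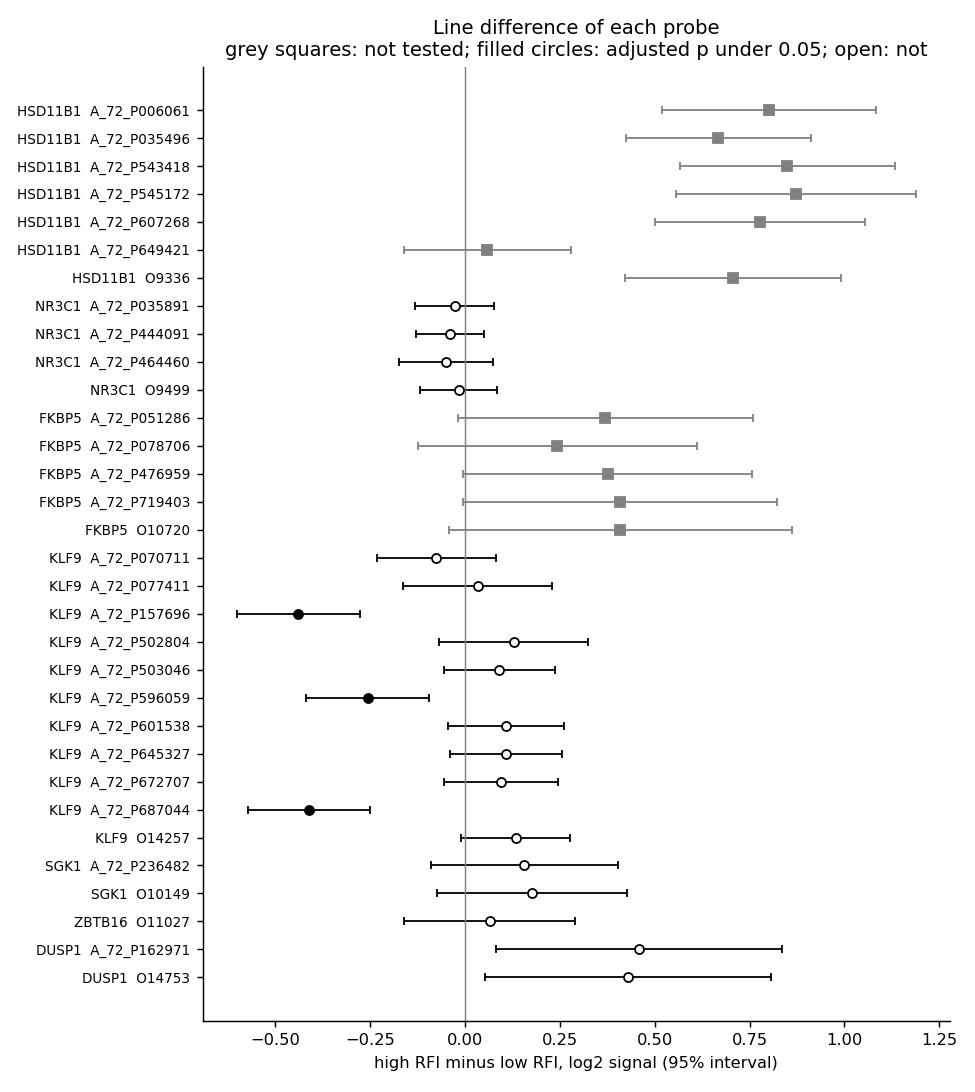
High RFI minus low RFI difference in log2 signal (horizontal axis) of the 32 probes, with 95% intervals from limma. Grey squares are the HSD11B1 and FKBP5 probes, which were not tested, filled circles passed an adjusted p of 0.05 and open circles did not. The squares of 6 HSD11B1 probes lie at 0.67 to 0.87, and the filled circles are 3 of 11 KLF9 probes, at -0.44 to -0.26.

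NR3C1, the receptor, gave no called difference between the lines. On its lead probe (A_72_P035891), low RFI pigs ran from 2.76 to 3.38 with a median of 3.12, and high RFI pigs from 2.72 to 3.43 with a median of 3.11. The lines covered nearly the same range. The difference was -0.03 (SE 0.05, 95% interval -0.13 to 0.08, limma adjusted p = 0.769), and the other 3 probes gave -0.05 to -0.02. The spread between pigs within groups was an SD of 0.18 on the lead probe, smaller than that of most probes, since 21.1% of tested probes had a lower one.

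FKBP5, the co-chaperone gene used as a readout of receptor activity, varied widely from pig to pig. Its line values, too, were among those the gene set was chosen by and are given without a test. On the lead probe (A_72_P051286), low RFI pigs ran from -1.86 to 0.65 (median -0.66) on HF and from -1.13 to 0.97 (median -0.27) on LF. High RFI pigs ran from -1.33 to 0.66 (median -0.11) on HF and from -0.96 to 1.36 (median -0.03) on LF. The 4 groups overlapped over most of their range. The SD within groups was 0.69, a spread exceeded by few probes (94.0% of tested probes had a lower one, and the median SD was 0.26). Over both diets, the line difference was 0.37 (SE 0.19, 95% interval -0.02 to 0.76), and that of the other 4 probes was 0.24 to 0.41 (SE 0.18 to 0.22). By diet, the FKBP5 probes gave 0.27 to 0.66 on HF and 0.16 to 0.28 on LF, with SEs of 0.26 to 0.32 on each diet. The difference of the lead probe was above 0 within each of the 6 slides, from 0.14 to 0.66. For the other 4 probes the differences within slides ran from -0.12 to 0.91. A_72_P078706, A_72_P719403 and O10720 each had 1 slide below 0. FKBP5 probes followed each other closely within groups, at r = 0.88 to 0.97.

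KLF9, a glucocorticoid-induced transcription factor gene that is also tied to the circadian clock, moved in a way that depended on the stretch of transcript a probe reads. The probes starting at bases 2928 and 3148 fell in the high RFI line by 0.44 (SE 0.08, limma adjusted p = 1.85e-04) and by 0.41 (SE 0.08, limma adjusted p = 3.58e-04). The lead probe, starting at base 3572, fell by 0.26 (SE 0.08, limma adjusted p = 0.0233). On the lead probe low RFI pigs ran from 3.49 to 4.55 with a median of 3.88, and high RFI pigs from 3.26 to 4.21 with a median of 3.64. The lines overlapped, with 4 of 24 high RFI pigs above the low RFI median. The 4 probes starting between bases 4201 and 4284 gave 0.09 to 0.11 and did not pass the test (limma adjusted p = 0.314 to 0.410), nor did O14257, at 0.13. The probe starting at base 170 gave -0.07, and the other 2 probes, annotated to another KLF9 transcript, gave 0.03 and 0.13, none of them past the threshold. These were the dimmest KLF9 probes, with mean levels of -3.10 to -2.40, against 0.98 to 3.79 for the rest.

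**Figure D3:**
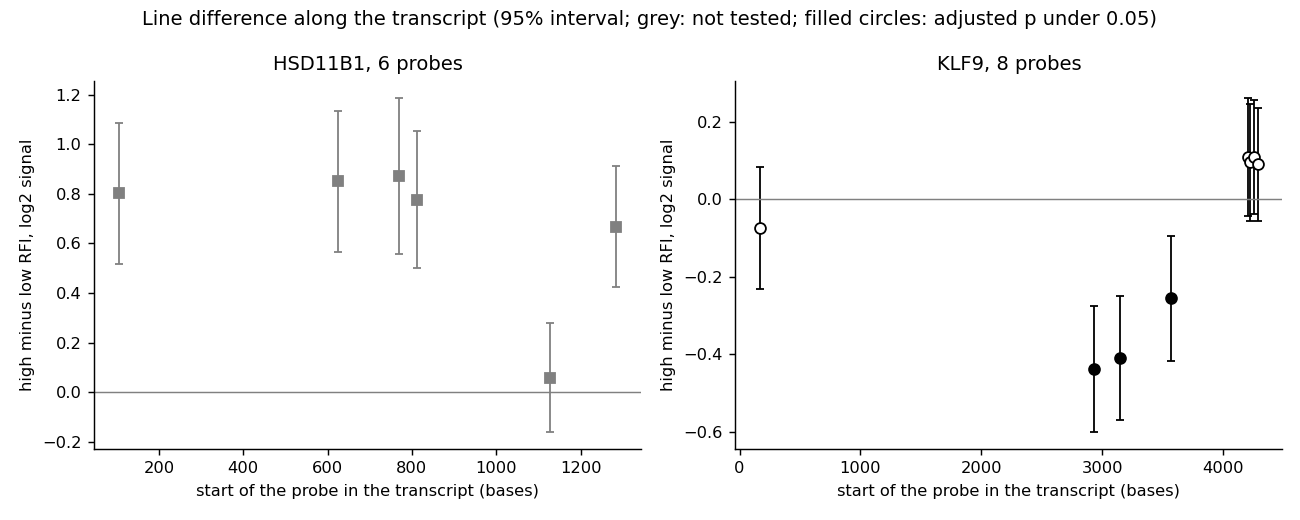
Line difference in log2 signal (vertical axis, with 95% intervals) against the base at which a probe starts in its transcript (horizontal axis), for 6 HSD11B1 probes and 8 KLF9 probes placed on the same transcript of each gene. Grey squares were not tested and filled circles passed an adjusted p of 0.05. For HSD11B1 the probe at 1127 lies near 0 between neighbours at 0.78 and 0.67, and for KLF9 the probes at 2928, 3148 and 3572 lie below 0 while those from 4201 on lie slightly above it.

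The contrast between these stretches of KLF9 was visible pig by pig. The mean of the 3 probes starting from 2928 to 3572, minus the mean of the 4 starting from 4201 to 4284, ran from -1.47 to -0.54 in low RFI pigs with a median of -0.88. In high RFI pigs it ran from -1.72 to -1.20 with a median of -1.41. All 24 high RFI pigs were below the low RFI median, and 18 of 24 low RFI pigs were above the highest high RFI pig. The difference between the line means of this log2 ratio was -0.47, and within slides it ran from -0.75 to -0.18. The probe stretches were chosen after their values were seen, so no test was made, and overlapping probes (up to 37 shared bases at the end of the transcript) are not separate readings.

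SGK1, a kinase gene induced within hours by glucocorticoids, gave no called difference. On its lead probe (A_72_P236482), low RFI pigs ran from -0.66 to 1.08 with a median of 0.36, and high RFI pigs from -0.24 to 1.05 with a median of 0.48. The lines overlapped, and the difference was 0.16 (SE 0.12, limma adjusted p = 0.395), with 0.02 on HF and 0.29 on LF. ZBTB16, read by 1 probe, ran from 2.07 to 3.49 with a median of 2.88 in low RFI pigs and from 2.002 to 3.83 with a median of 3.01 in high RFI pigs. Its difference was 0.07 (SE 0.11, 95% interval -0.16 to 0.29, limma adjusted p = 0.732).

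DUSP1, which encodes a phosphatase that switches off MAP kinases and is also an immediate early gene, was the most variable target beside FKBP5, with an SD of 0.67 within groups. On its lead probe (O14753), low RFI pigs ran from 4.59 to 6.58 with a median of 5.56, and high RFI pigs from 4.38 to 7.53 with a median of 5.89. The lines overlapped, although 4 high RFI pigs were above the highest low RFI pig. The differences of its 2 probes were 0.43 (SE 0.19, limma adjusted p = 0.106) and 0.46 (SE 0.19, limma adjusted p = 0.0846), short of the threshold. Slides held 30.2% of its variance within groups, more than for the other 6 genes (7.93% to 19.1%), and its line difference within slides ran from -0.12 to 0.78. Of 16 probes of other immediate early genes, in the high RFI line 4 were called higher and 0 called lower, beside 6.57% and 9.85% of all tested probes, and the 4 were those of MYC (0.50 to 0.62). The median difference over the 16 probes was 0.53, beside -0.03 over all tested probes. The 5 FOS probes gave 0.93 to 1.08 and the 2 NR4A1 probes -0.09 and 0.11, none of them called.

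Diet moved none of these genes past the threshold. Of the 32 probes, 0 were called between HF and LF over both lines by limma (0.420% of all tested probes were), with 2 at an unadjusted p under 0.05. The 7 HSD11B1 probes (-0.29 to -0.18) and the 5 FKBP5 probes (-0.41 to -0.25) had values below 0, that is, lower on HF, and the 11 KLF9 probes had values above 0 (0.03 to 0.17). The smallest limma adjusted p among them was 0.316. Within the low RFI line 0 of the 32 were called (0.199% of all tested probes), with 1 at an unadjusted p under 0.05, and within the high RFI line 0 (0% of all tested probes), with 0. For the dependence of the line difference on the diet, 0 of the 32 were called, as were 0 of all tested probes, with 0 of the 32 at an unadjusted p under 0.05.

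The relation of HSD11B1 to the targets was read within groups, from the lead probes after the 4 group means were taken away. Over the 48 pigs, r was 0.30 with KLF9, 0.29 with ZBTB16, 0.28 with FKBP5, 0.21 with DUSP1, 0.12 with SGK1 and 0.11 with NR3C1. Spearman's rho was 0.23, 0.32, 0.27, 0.16, 0.19 and 0.08 in the same order. In two-sided permutation tests within groups, p was 0.0345 for KLF9, 0.0621 for ZBTB16 and 0.0654 for FKBP5, and 0.131 for each of the 3 after Benjamini-Hochberg adjustment over the 6 pairs. The permutation p of rho was 0.0364 for ZBTB16, 0.0732 for FKBP5 and 0.109 for KLF9, and 0.217 for each after adjustment. For DUSP1, SGK1 and NR3C1 the permutation p of r was 0.219, 0.404 and 0.478, and that of rho 0.321, 0.210 and 0.593. None of the 6 relations therefore passed the threshold.

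Without the 2 pigs farthest from the HSD11B1 median, r with KLF9 was 0.19 (permutation p = 0.202), against 0.30 with them. The others were then 0.33 with ZBTB16, 0.29 with FKBP5, 0.23 with DUSP1, 0.21 with SGK1 and 0.02 with NR3C1. With FKBP5, r was 0.17 in low RFI and 0.36 in high RFI pigs, and with ZBTB16 it was 0.10 and 0.37. The difference between the lines in these correlations was not tested. By scan day, r with FKBP5 was 0.10 and 0.41, with ZBTB16 0.16 and 0.40, and with KLF9 0.25 and 0.22. Taking every probe of the other 6 genes, the 25 correlations with the HSD11B1 lead probe were between 0.03 and 0.40, and 0 were called by limma over all probes (0% of 42118 tested), with 10 at an unadjusted p under 0.05, beside 7.54% of all probes. Probes of 1 gene are not independent, so these counts are not 25 separate relations. With the FKBP5 lead probe, the 7 HSD11B1 probes correlated at 0.28 to 0.41, and the HSD11B1 lead probe gave the lowest of these. None of the 7 was called by limma over all probes (adjusted p = 0.115 to 0.333).

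**Figure D4:**
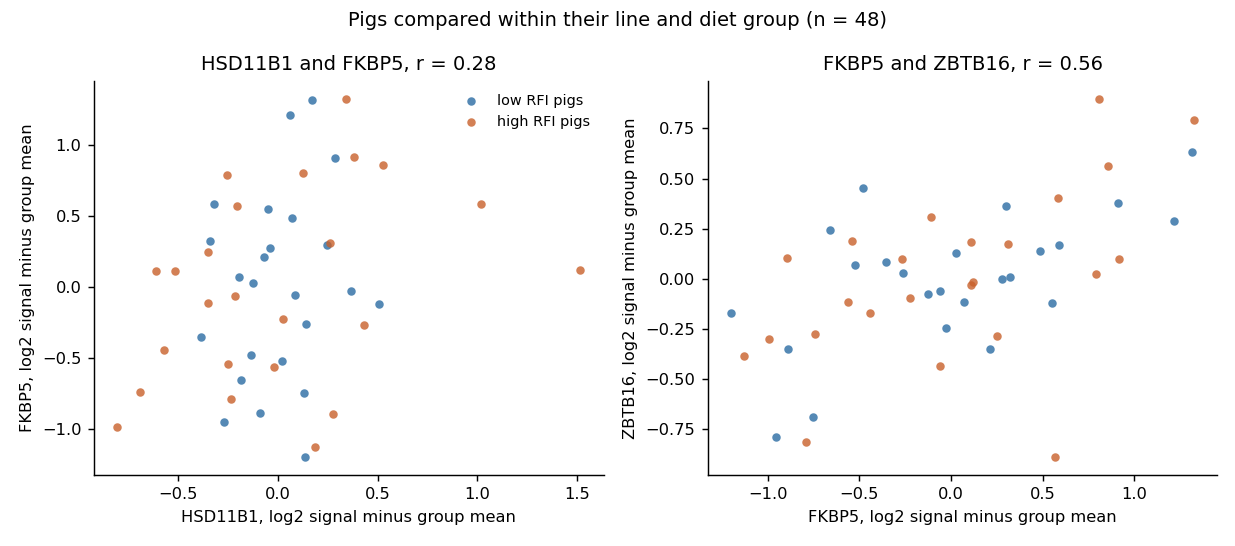
Each pig's lead-probe log2 signal minus its group mean, for HSD11B1 against FKBP5 (left) and FKBP5 against ZBTB16 (right), in low RFI (blue) and high RFI (orange) pigs, n = 48. The left cloud is diffuse (r = 0.28), with a pair of high RFI pigs far to the right, and the right cloud rises from lower left to upper right (r = 0.56).

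The targets themselves did not move as a single block. Of the 21 pairs among the 7 genes, 15 had r above 0, with a median of 0.16. The highest was FKBP5 with ZBTB16, a zinc finger transcription factor gene induced by the receptor in many tissues, at r = 0.56 and rho = 0.53. This pair was singled out after its value was seen. In the limma fit of FKBP5 against all probes, ZBTB16 was the 1 called among the 27 probes of the other 6 genes (limma adjusted p = 0.0242). Of all tested probes, 0.434% were called with a positive slope. At an unadjusted limma p under 0.05 were 15 of the 27, beside 15.7% of all probes, and probes of 1 gene are not independent. With FKBP5, HSD11B1 probes had r = 0.28 to 0.41, KLF9 probes 0.11 to 0.48, and NR3C1 and SGK1 probes -0.15 to -0.03. The correlations that follow are those of FKBP5 with ZBTB16. This correlation was 0.60 and 0.41 in low and high RFI pigs on HF, and 0.59 and 0.72 on LF. It was 0.36 and 0.72 on the 2 scan days, and 0.51 without the 2 pigs farthest from the FKBP5 median. The lowest of the 21 was KLF9 with SGK1, at r = -0.41 and rho = -0.32, with -0.62 in low RFI and -0.11 in high RFI pigs. It, too, was singled out after its value was seen, and it rests on the KLF9 probe starting at 3572. KLF9 probes correlated with each other within groups at 0.15 to 0.99. NR3C1 had r = -0.11 with FKBP5.

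**Figure D5:**
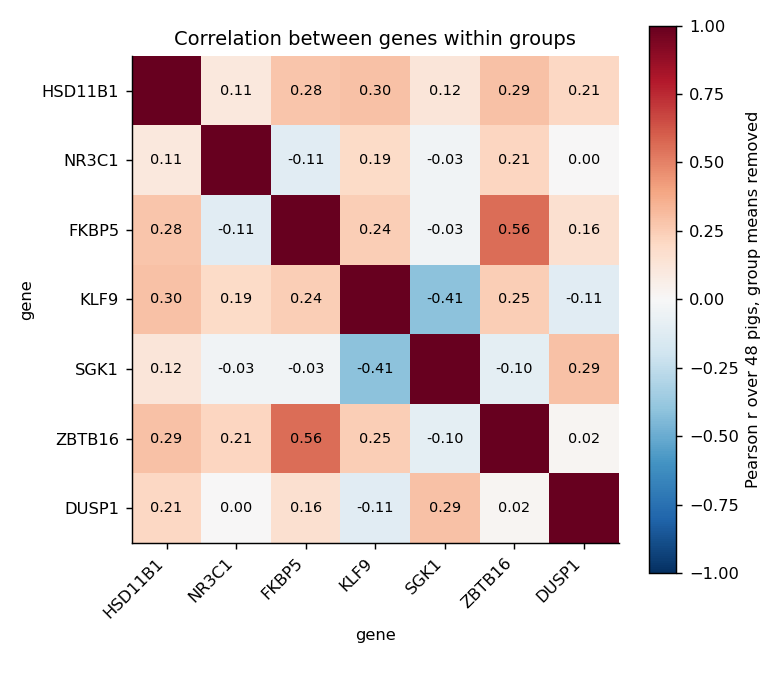
Pearson r between the lead probes of 7 genes over 48 pigs after removal of the 4 group means, from -1 (blue) to 1 (red), with both axes listing the genes. FKBP5 with ZBTB16 is the darkest red pair (0.56) and KLF9 with SGK1 the darkest blue (-0.41), while the HSD11B1 row lies between 0.11 and 0.30.

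FOXO1 and PER1, both known to be induced by glucocorticoids, varied between pigs with FKBP5, and collagen genes varied with the opposite sign. Among 93 probes of 25 other genes known to be induced by glucocorticoids, 4 were called positive with FKBP5 (0.434% of all tested probes were) and 0 negative. They were 3 of 4 probes of FOXO1, a transcription factor gene of the muscle atrophy programme (r = 0.54 to 0.64, limma adjusted p = 0.0049 to 0.0298), and the probe of the clock gene PER1 (r = 0.51, limma adjusted p = 0.0404). The median r over the 93 probes was 0.16, beside 0.02 over all tested probes. Other members of that list did not pass the test, such as DDIT4 (0.33) and KLF15 (0.26), nor did the atrophy ligase genes TRIM63 (0.16) and FBXO32 (-0.02). Of 26 probes of fibroblast genes, 5 were called negative (0.418% of all tested probes were), 2 of COL1A1, 1 of COL1A2 and 2 of COL3A1, at r = -0.56 to -0.51. The mean of the 6 fibroblast genes correlated with FKBP5 within groups at r = -0.54 (permutation p = 0.00014, adjusted p = 0.0017 over 12 relations) and rho = -0.50 (permutation p = 0.0006). By group it was -0.22 in low RFI and -0.53 in high RFI pigs on HF, and -0.62 and -0.76 on LF. It was -0.63 and -0.44 on the 2 scan days, -0.53 with slides taken out and -0.54 without the 2 pigs farthest from the FKBP5 median.

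The genes most like FKBP5 among 8808 symbols outside the 10 genes were MN1 (r = 0.72), DUSP26 (0.64), STK11 (0.63), MAX (0.61) and TOB2 (0.61), over 48 pigs. Their limma adjusted p values were at most 0.0094. Those most like HSD11B1 were ELSPBP1 (0.55), SEMA4G (0.53), GUCY2C (0.51), FAM173A (0.50) and LRIG2 (0.49), with limma adjusted p values from 0.374 to 0.421. HSD11B1 thus had no called partner, and FKBP5 had 359 called probes of 42120.

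The rest of the pathway was read from fixed lists, to be set beside the 6.57% of all tested probes called higher and the 9.85% called lower in the high RFI line. Of 46 probes of 15 receptor chaperones and coregulators, in the high RFI line 0 were called higher and 2 called lower, both of the acetyltransferase gene EP300 (-0.19 and -0.18), which makes 4.35% of the list, and the median difference was -0.06. Of 13 probes of 6 corticosteroid enzyme, transport and receptor genes, 0 were called higher and 1 lower (7.69% of the list). This was HSD3B1, a steroid-synthesis dehydrogenase gene, at -0.59 (SE 0.06, limma adjusted p = 1.18e-09). HSD11B2, whose enzyme inactivates cortisol, gave -0.13 (limma adjusted p = 0.154), and NR3C2, the mineralocorticoid receptor gene, -0.14 (limma adjusted p = 0.127). Of the 93 probes of other induced genes, 17 were called higher and 3 called lower, or 21.5%, beside 16.4% of all tested probes. Called higher were 2 of 3 probes of the metallothionein gene MT1A (1.443 and 1.4997), 4 of 4 of the cell cycle inhibitor gene CDKN1A (0.52 to 0.56), 8 of 9 of ANXA1, 2 of 4 of ANGPTL4 and 1 of 6 of the macrophage scavenger receptor gene CD163. Called lower were 2 of 3 probes of myostatin, MSTN (-0.32 and -0.31), and 1 of 7 of LPIN1 (-0.37). FOXO1, PER1 and the ubiquitin ligase genes TRIM63 and FBXO32 were not called between the lines. Of 10 probes of 6 genes known to be repressed by glucocorticoids, 2 were called higher, both of the chemokine gene CCL2, and 1 lower, of TNF, so that 3 of 10 were called, beside 16.4% in either direction over all tested probes.

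Markers of other cell types were counted in the same way. In the high RFI line, 6.57% of all tested probes were called higher. So were 10 of 33 adipocyte probes (30.3%, 8 of FABP4 and 2 of LIPE) and 7 of 13 macrophage probes (53.8%). The 7 were 3 of AIF1, 2 of CD14, 1 of CD163 and 1 of CSF1R. Also called higher were 4 of 26 fibroblast probes (15.4%, 2 of COL1A1 and 2 of COL1A2) and 2 of 16 endothelial probes (12.5%, both of TEK). No probe of CD68, COL3A1, DCN, LUM, PDGFRA, PECAM1, CDH5, VWF or KDR was called. Of the muscle fibre probes 19 of 69 were called lower (27.5%), where 9.85% of all tested probes were. They were 6 of CKM, 5 of MYH4, 3 of TNNI2, 3 of TNNT3 and 2 of MYH2. No probe of ACTA1, MYH1, MYH7 or MB was called. The median difference over the 69 probes was -0.09. In either direction the share over all tested probes was 16.4%. T cell probes were called for 0 of 4. The mean of the 7 adipocyte genes ran from 0.25 to 2.16 in low RFI pigs, with a median of 1.31. In high RFI pigs it ran from 0.67 to 2.38, with a slightly lower median of 1.27. The mean of the 5 macrophage genes ran from -2.20 to -0.64 (median -1.34) and from -1.53 to 0.54 (median -0.79). That of the 6 fibroblast genes ran from 3.41 to 4.35 (median 3.73) and from 3.55 to 4.42 (median 3.97). ADIPOQ, PLIN1, LEP, CIDEC and PPARG were not called, and the dimmest lead markers, CD68, PDGFRA and CSF1R, were well above background on 28, 32 and 35 arrays. Within groups HSD11B1 correlated with the marker means of the 6 cell types at r = -0.20 to 0.21 (permutation p adjusted over 12 relations from 0.495 to 0.903). The part of these cells in the line difference of HSD11B1 was not tested.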

How the data were processed

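Gene expression was measured in longissimus muscle of 48 pigs, each on its own Agilent 60 K one-colour array. The authors deposited scanner files with spot intensities, made with Feature Extraction 10.7.3.1, and a table of log2 values centred on each array's median. R 2.10.0 is named in the submitters' processing notes. Here, the log2 of the processed intensity was taken, control and outlier spots were left out, spots of 1 probe were averaged, and each array was centred on its mean over the 42125 tested probes, whose spots stood well above background on 12 or more arrays. The array annotation gave no genome position or build, so no coordinates are printed.

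The 4 group means were fitted with limma 3.58.1 (R 4.3.3), a step tested on simulated data. Relations between genes were tested with 100000 two-sided permutations within groups (numpy 2.4.6 and scipy 1.17.1 in Python 3.11.15). The genes and lists were chosen with earlier results of these data known. Genes named are the 10, list genes where 5 or fewer were called or a result turns on them, and the 5 symbols most like HSD11B1 and FKBP5. List genes named beside these for their values were chosen after those values were seen. Replicate numbers follow the order of the samples and pair nothing. Alternatives were other scalings (75th percentile, median, quantile), normexp background correction with an offset of 50, other filters, outlier spots kept, the slide as a block, the share of bright probes as a covariate, the deposited table with 34472 probes, and leaving out the array least like the others.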

Additional observations from a re-analysis of the deposited data

How the results depend on the processing

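Under the 11 alternative settings of the array analysis, 0 of the 20 probes of the 5 genes that did not choose the set were called higher in the high RFI line, and 2 or 3 were called lower (3 as reported), a count added after seeing the data. None of the 32 probes was called for the diet or for the interaction under these settings. The line difference of the HSD11B1 lead probe ran from 0.64 to 0.69 and that of the probe A_72_P649421 from 0.03 to 0.10. Those of the KLF9 probes at 2928 and 3148 ran from -0.45 to -0.38 and from -0.42 to -0.33. The KLF9 lead probe missed the threshold without a filter on dim probes (-0.25, limma adjusted p = 0.0557) and kept its call under the other settings. The DUSP1 lead probe ran from 0.40 to 0.47 (limma adjusted p = 0.0605 to 0.163). Under the 6 alternatives for relations, the correlation of HSD11B1 with FKBP5 ran from 0.22 to 0.33, with ZBTB16 from 0.22 to 0.35 and with KLF9 from 0.19 to 0.39 (lowest adjusted p = 0.0568). That of FKBP5 with ZBTB16 ran from 0.51 to 0.60, and these alternatives were added after seeing the data. The number of arrays limits the precision, CEBPD was not well above background, and single-probe genes such as ZBTB16 have no second reading. No paired analysis was possible because the labels give no numbers that pair pigs across groups.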

Other observations

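The array holds 2 further probes, A_72_P197462 and A_72_P262522, that carry no gene symbol on the array but are called FKBP5 in the annotation the study used. Within groups they correlated with the FKBP5 lead probe at r = 0.65 and 0.65 over 48 pigs, below the 0.88 to 0.97 among the 5 probes that carry the symbol. Their high RFI minus low RFI differences are given without a test, on the log2 scale. Over both diets they were 0.48 (SE 0.23) and 0.56 (SE 0.24). By diet they were 0.98 (SE 0.33) and 1.07 (SE 0.34) on HF and -0.03 (SE 0.33) and 0.05 (SE 0.34) on LF. The interaction of line and diet was 1.01 for both (SE 0.47) and was not called (limma adjusted p = 0.999). Among the 5 probes that carry the symbol, the interaction ran from 0.05 to 0.50.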
